A study of Rattus norvegicus with 4 samples.

Results

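The genes described here build, cut and cross-link the extracellular matrix of the rat small intestine. They were the collagens, the laminins, the matrix metalloproteinases (Mmp), their tissue inhibitors (Timp), the Adamts proteases with the related Adamtsl proteins, and the lysyl oxidases (Lox and the Loxl genes). Members were taken by the gene name printed in the array files, whatever their signal. The rule took 121 of the 41012 probes on the array, which stood for 90 genes. Of these, 87 probes for 67 genes passed the software's background test on at least 2 arrays and were kept, among 28415 probes and 24313 genes or unnamed transcripts kept in all.

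Total RNA was taken from the small intestine, freed of Peyer's patches, of male rats of the outbred Wistar strain. The 2 compost rats drank tap water that held 1% (v/v) compost extract, a warmed aqueous dilution of a fermented compost, and the 2 control rats drank water alone. All 4 rats were 3 weeks old at the start, had free access to the water for 12 weeks, and gave 1 single-colour Agilent array each. The labels name individual rats but not the segment of the small intestine. The arrays shared 1 slide and 1 scan, with the compost rats at positions 3 and 4 and the control rats at positions 1 and 2, so that position on the slide and treatment cannot be told apart.

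Fibrillar collagens form the tensile fibres of the intestinal wall and are made mainly by fibroblasts and muscle cells, while type 4 collagens and laminins form the sheet-like basement membranes under the epithelium, around vessels and around muscle. Lysyl oxidases cross-link collagen and elastin. Mmp and Adamts enzymes cut matrix proteins and many other secreted or surface proteins, and Timp proteins block them.

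Every level below is the log2 of the processed spot intensity minus the 75th percentile of the same array over all gene probes, so that 0 is that percentile, and every difference is compost minus control. Errors after ± are standard errors from limma. On the 4 arrays, 66.5% to 71.0% of gene spots passed the background test. Of the 67 genes, 57 were well above background on all 4 arrays, each of the others on at least 1 array of each group, and none was saturated. Epithelial markers of the labelled tissue were present: all 11 on the array were kept, and the villus protein gene Vil1 stood at 6.14 and 6.43 in compost rats and at 6.67 and 6.44 in control rats. Across the 87 probes, the 2 compost arrays correlated at r = 0.966 and the other pairs of arrays at 0.974 to 0.984, a description across probes that share an array.

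No matrix gene passed the test of compost against control rats. After Benjamini-Hochberg adjustment over all probes, limma called 0 of the 87 probes, where the background was 0% of 28415 probes, and the lowest adjusted p of a member was 0.867, against 0.103 over all probes. At an unadjusted p under 0.05 there were 5 of the 87 probes (5.75%), against a background of 3.21%. Adamts5, Mmp12 and Timp1 were the 3 higher in compost rats, and Col23a1 and the dimmest of the 4 Lamb3 probes were the 2 lower. With 2 rats a group, an exact two-sided permutation test of a single gene cannot give a p below 0.333.

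Counted by overlap, 9 of the 87 probes (10.3%) had each compost rat above each control rat, where the background was 12.4%, and 7 probes (8.05%) had both compost rats below, where it was 15.5%. At a gap of 1 log2 unit or more there was 1 probe above, that of Adamts5, against a background of 0.282%, and 0 below, against 0.155%. Taking 1 probe a gene, 42 genes were higher and 25 lower in compost rats, with a median difference of 0.08, against -0.02 over all genes kept. With normexp background correction 34 of the 67 genes were higher, with a median of 0.02. The median turned to -0.23, with 22 genes higher, without compost rat 1, and to -0.02, with 33 genes higher, without control rat 2. Without compost rat 2 it was 0.45, with 50 genes higher.

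Inside the compost group the 2 rats stood apart. Compost rat 1 was above compost rat 2 in 50 of the 67 genes (74.6%), against 43.3% of all genes kept. The median of compost rat 1 minus compost rat 2 was 0.72, a 1.65-fold higher signal, while over all genes it was -0.07. In 16 genes compost rat 1 exceeded compost rat 2 by 1 log2 unit or more (23.9%, against 4.80% of all genes), and in 1 gene, Col7a1, the reverse held. The median size of the difference inside a group was 0.72 in the compost pair and 0.41 in the control pair for the matrix genes, and 0.31 and 0.19 over all genes, so that the compost pair differed more over the whole array too. Between the control rats the median difference was 0.21, with control rat 1 above control rat 2 in 45 genes (67.2%, against 44.9% of all genes, whose median was -0.03), by 1 log2 unit or more in 3 genes and below it by as much in 3.

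Compost rat 1 held the highest of the 4 values in 41 of the 67 genes (61.2%), against 26.0% of all genes. The lowest value lay in compost rat 2 in 26 genes (38.8%, against 23.4% of all genes). It lay in control rat 2 in 21 genes (31.3%, against 14.4% of all genes). With each gene set to its mean over the 4 rats, the median of the matrix genes was 0.43 in compost rat 1 and -0.25 in compost rat 2, against 0.07 in control rat 1 and -0.20 in control rat 2. The medians over all genes lay between -0.04 and 0.03. The excess of compost rat 1 was not confined to dim probes. Among the 24 member probes at or above the 75th percentile, the median size of the difference between the compost rats was 0.79, against 0.23 for all probes of that brightness. Among the 36 member probes more than 3 log2 units below it, the median size was 0.65, against 0.44 for all such probes. With its sign kept, the median of compost rat 1 minus compost rat 2 was 0.77 for the 24 bright probes, with compost rat 1 above in 19. For the 36 dim probes it was 0.26, with compost rat 1 above in 22. Over all probes of the same brightness it was -0.11 and -0.03. With quantile or median scaling compost rat 1 was highest in 43 and 42 genes, and with normexp in 34 (50.7%, against 20.8% of all genes), where it was above compost rat 2 in 39. These values describe rats of 1 group and carry no test. The heat map of the genes and the plot of differences inside the groups show the pattern gene by gene.

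**Figure D1:**
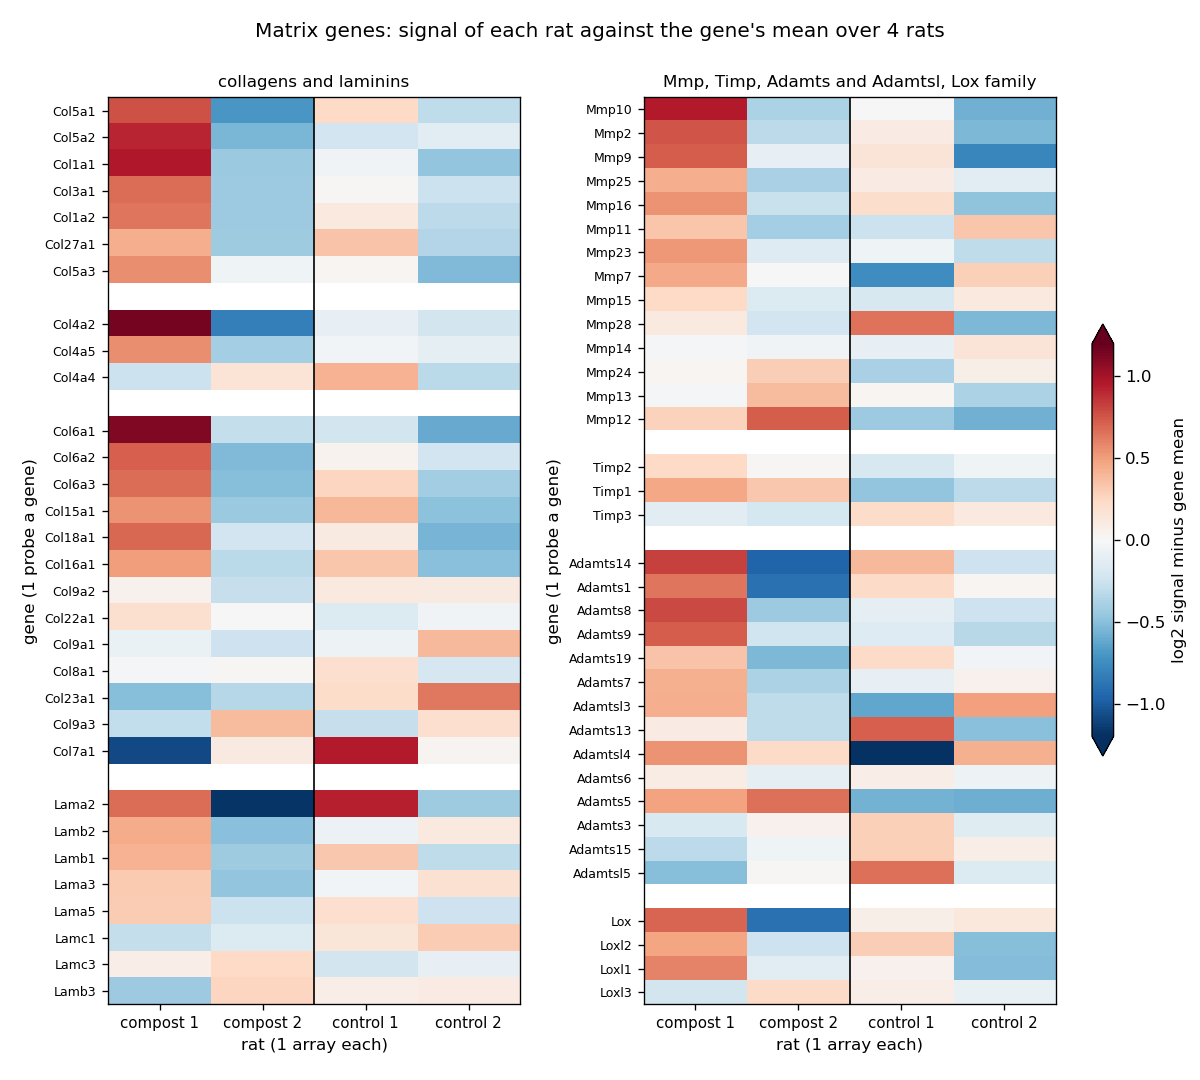
Colour gives the log2 signal of each rat minus the mean of the gene over the 4 rats, with 1 row a gene (1 probe each, 1 laminin gene not shown), blank bands between gene classes and a vertical line between the 2 compost rats and the 2 control rats. Red fills most of the compost 1 column, which holds the highest value in 41 of the 67 genes, and blue most of the compost 2 column, which holds the lowest in 26; values beyond 1.2 share the end colours.

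**Figure D2:**
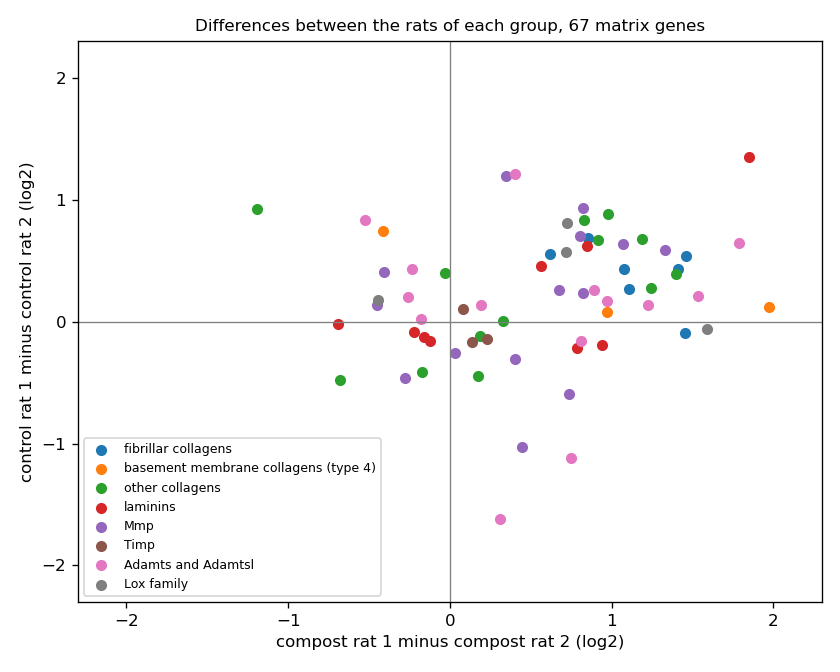
Each point is 1 of the 67 matrix genes, coloured by class, at the difference between the 2 compost rats (horizontal axis, log2) and between the 2 control rats (vertical axis, log2), with lines at 0. The points lie to the right of the vertical line in 50 genes and reach 1.97 for Col4a2, while the vertical positions centre near 0.21.

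Among the fibrillar collagens, 7 of the 9 genes were kept, and all 7 showed the pattern of compost rat 1. Col1a2, a chain of type I collagen, stood at 4.42 and 3.35 in compost rats and at 3.90 and 3.47 in control rats. Col1a1, the other chain, stood at 3.81 and 2.41 in compost rats and at 2.81 and 2.38 in control rats. Compost rat 1 was the high sample in both genes, and the groups overlapped.

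Col3a1, the collagen of reticular fibres, stood at 3.99 and 2.89 in compost rats and at 3.34 and 3.07 in control rats. Col5a1, a chain of type V collagen that controls fibril width, stood at -0.12 and -1.58 in compost rats and at -0.65 and -1.19 in control rats, the largest difference inside a group in this class. Its partner Col5a2 stood at 2.39 and 0.94 in compost rats and at 1.26 and 1.35 in control rats. In all 3 the control rats lay between the compost rats. Compost rat 1 was the highest rat for all 7 genes and compost rat 2 the lowest for 5, and compost rat 1 exceeded compost rat 2 on all 12 probes of the class. The median excess was 1.11, a 2.15-fold higher signal, against 0.43 between the control rats.

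The differences between the groups were smaller. All 7 fibrillar collagens had a positive difference, from 0.01 for Col27a1 to 0.51 for Col1a1 (standard errors 0.40 and 0.51), with a median of 0.24 and 0 calls. With normexp Col27a1 turned to -0.04 and the other 6 stayed positive. Without compost rat 1 only Col5a3 kept a positive difference, 0.20, and the other 6 were negative, with a median of -0.34. Without compost rat 2 the median was 0.80, and without control rat 2 it was 0.10 with 4 of 7 positive.

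Of the type 4 collagens of basement membranes, all 3 genes on the array were kept. Col4a2 stood at -1.78 and -3.75 in compost rats and at -3.02 and -3.15 in control rats. The gap of 1.97 between the compost rats was the largest among the matrix genes at 1 probe a gene, and the control rats lay inside it. Col4a5 stood at -1.50 and -2.47 in compost rats and at -2.09 and -2.17 in control rats, with the same order. Col4a4 went the other way inside the compost pair, at -3.20 and -2.78, against -2.52 and -3.27 in control rats. The differences between the groups were 0.32 ± 0.67 for Col4a2, 0.15 ± 0.36 for Col4a5 and -0.09 ± 0.33 for Col4a4 (standard errors). Their median was 0.15, and -0.34 without compost rat 1.

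Of the other collagens, 13 of 17 genes were kept. The type VI chains, which form beaded filaments around cells, shared the pattern of the fibrillar collagens. Col6a1 stood at 3.00 and 1.60 in compost rats and at 1.67 and 1.28 in control rats, a difference of 0.83 ± 0.51 (standard error) that came down to 0.13 without compost rat 1. Col6a2 and Col6a3 were higher in compost rat 1 than in compost rat 2 by 1.24 and 1.19. Col15a1, Col16a1 and Col18a1, collagens found near basement membranes, were higher in compost rat 1 by 0.98, 0.83 and 0.92, and in control rat 1 than in control rat 2 by 0.88, 0.83 and 0.67.

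Another set of collagens did not follow compost rat 1. Col23a1, a transmembrane collagen, stood at -4.94 and -4.77 in compost rats and at -4.21 and -3.79 in control rats, with both compost rats below both control rats. Its difference was -0.85 ± 0.23 (standard error), with a limma unadjusted p of 0.0149 and an adjusted p of 1.00. With normexp the difference was -0.33, and the second, dimmer Col23a1 probe gave -0.63 ± 0.72 with groups that overlapped. Col7a1, which makes the anchoring fibrils of epithelia, stood at -5.93 and -4.75 in compost rats and at -3.90 and -4.82 in control rats. Its difference was -0.98 ± 0.52, with compost rat 2 above control rat 2, and it rests on a value of compost rat 1 that was not well above background.

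The cartilage collagen genes Col9a1 and Col9a2 lay below the control rats in both compost rats. Col9a1 stood at -4.08 and -4.26 in compost rats and at -4.07 and -3.62 in control rats, a difference of -0.33 ± 0.23, and the nearest rats of the groups differed by 0.0172. Col9a2 stood at -3.40 and -3.73 in compost rats and at -3.34 and -3.35 in control rats, a difference of -0.22 ± 0.20. The rats of the groups overlapped for Col9a1 under quantile, median and normexp settings. Col22a1 was the only collagen with the compost rats above the control rats, by a difference of 0.20 ± 0.19 that was -0.04 with normexp. Over the 13 genes, 9 were higher and 4 lower with a median of 0.09, and with normexp 6 were higher and 7 lower. Without compost rat 1 the split was 4 higher and 9 lower with a median of -0.38, and without control rat 2 it was 5 higher and 8 lower with a median of -0.18.

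Of the laminins, 9 of 10 genes were kept, and they split by chain. Lama3 and Lamb3 encode chains of the laminin that anchors epithelial cells. Lamb3 stood at 3.00 and 3.69 in compost rats and at 3.51 and 3.53 in control rats, so that compost rat 1 was the lowest of the 4 rats. Compost rat 2 was above compost rat 1 on all 4 Lamb3 probes. Lama3 stood at -0.98 and -1.77 in compost rats and at -1.33 and -1.11 in control rats, highest in compost rat 1. The difference between the groups was -0.18 ± 0.28 for Lamb3 and -0.16 ± 0.32 for Lama3.

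Lama2, a chain found around muscle and in the mesenchyme, stood at -3.44 and -5.29 in compost rats and at -3.18 and -4.54 in control rats. Both groups were split widely, by 1.85 and 1.35, and the groups overlapped, with a difference of -0.50 ± 0.77 in which compost rat 2 was not well above background. Lamb1 and Lamb2, broadly used chains, were higher in compost rat 1 than in compost rat 2 by 0.85 and 0.94. Lamc1, the gamma chain of most laminins, stood at -2.81 and -2.69 in compost rats and at -2.38 and -2.22 in control rats, with the compost rats below the control rats. Its difference was -0.45 ± 0.18, but the second Lamc1 probe gave 0.31 ± 0.24 with the compost rats above, so that the probes disagreed. Lamc3 stood at -5.41 and -5.25 in compost rats and at -5.72 and -5.59 in control rats, a difference of 0.32 ± 0.18 that was 0.02 with normexp, with 1 array of each group well above background. Over the 9 genes 2 were higher and 7 lower with a median of -0.10. Without compost rat 2 there were 6 higher with a median of 0.24, and without compost rat 1 there were 3 higher with a median of -0.39.

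Of the metalloproteinases, 14 of 23 genes were kept, and Mmp12 was the only one whose groups did not overlap. Mmp12, macrophage elastase, stood at -3.42 and -2.97 in compost rats and at -4.14 and -4.28 in control rats. Its compost rats were the 2 highest, with compost rat 2 the higher of the pair, which was the reverse of the collagen pattern. The signal was 2.01-fold higher in compost rats, a difference of 1.01 ± 0.23 (standard error), with a limma unadjusted p of 0.00848 and an adjusted p of 1.00. Leaving out 1 rat at a time gave 0.79 to 1.23, and normexp gave 0.39 with the groups still apart.

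Mmp7, matrilysin, which Paneth cells make and which activates their defensins in mice, stood at 6.07 and 5.63 in compost rats and at 4.88 and 5.91 in control rats. Control rat 1 was the low sample, so that the difference of 0.45 ± 0.41 was 0.97 without control rat 2 and -0.06 without control rat 1. Mmp10, stromelysin, stood at 2.02 and 0.69 in compost rats and at 1.07 and 0.49 in control rats, a difference of 0.57 ± 0.51 that was -0.09 without compost rat 1. Mmp13, a collagenase, stood at -3.88 and -3.48 in compost rats and at -3.83 and -4.24 in control rats, a difference of 0.36 ± 0.26. The groups overlapped in all 3 genes.

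These 4 metalloproteinase genes have the same pair of promoter motifs, and their sequences are shown for that reason. RefSeq's promoter table (GRCr8), which reaches 250 bases upstream of each gene start, held 50 of the 67 genes kept and 10 of the 14 Mmp genes. It was searched on both strands for TATAAA, the TATA box, for TGAGTCA, the site that AP-1 factors bind, and for CCAAT. The following 120 bases end at the base before the start of each gene, with the matches in capitals.
Mmp12 (chr8:12866532-12866651, + strand): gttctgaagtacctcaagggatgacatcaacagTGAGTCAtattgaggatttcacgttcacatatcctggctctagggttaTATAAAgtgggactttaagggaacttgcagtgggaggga
Mmp10 (chr8:12974587-12974706, + strand): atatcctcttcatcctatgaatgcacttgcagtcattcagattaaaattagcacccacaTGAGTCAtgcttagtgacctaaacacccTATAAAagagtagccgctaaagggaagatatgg
Mmp7 (chr8:13132923-13133042, + strand): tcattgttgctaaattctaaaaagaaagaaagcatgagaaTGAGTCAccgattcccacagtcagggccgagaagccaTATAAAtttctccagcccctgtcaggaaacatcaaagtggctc
Mmp13 (chr8:12782709-12782828, + strand): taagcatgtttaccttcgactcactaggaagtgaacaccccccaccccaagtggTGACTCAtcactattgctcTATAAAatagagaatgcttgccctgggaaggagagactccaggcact

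The first base of the TATAAA match lay 39, 33, 43 and 47 bases upstream of the start of Mmp12, Mmp10, Mmp7 and Mmp13. That of the AP-1 match lay 87, 61, 80 and 66 bases upstream, on the reverse strand in Mmp13, and the matches did not overlap. TATAAA was found in 7 of the 50 promoters (14.0%), against 12.9% of all 33469 promoters, the AP-1 letters in 6 (12.0%), against 4.05%, and CCAAT in 13 (26.0%), against 34.0%. TATAAA and the AP-1 letters together were found in the promoters of these 4 genes alone among the 50, against 0.574% of all promoters. The 4 genes lie together on chromosome 8, so they are not independent, and a match describes letters and not bound sites. Their differences between the groups were 1.01, 0.57, 0.45 and 0.36, all positive and none past the adjusted threshold. The order inside the compost pair was not shared, since compost rat 1 was the higher rat for Mmp10 and Mmp7 and compost rat 2 for Mmp12 and Mmp13.

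The gelatinase gene Mmp2 stood at 1.92 and 0.85 in compost rats and at 1.26 and 0.62 in control rats, a difference of 0.45 ± 0.44, while its second probe gave -0.13 ± 0.21. Mmp9, the other gelatinase, stood at -2.20 and -3.03 in compost rats and at -2.78 and -3.71 in control rats, a difference of 0.63 ± 0.44. In both, rat 1 exceeded rat 2 in each group and the groups overlapped. Mmp14, the membrane enzyme that activates the Mmp2 proenzyme, varied little, at 3.68 and 3.65 in compost rats and 3.60 and 3.85 in control rats. The remaining Mmp genes, which include the membrane-type Mmp15, Mmp16, Mmp24 and Mmp25 and also Mmp11, Mmp23 and Mmp28, had differences from -0.11 for Mmp28 to 0.36 for Mmp23. In all, 11 Mmp genes were higher and 3 lower, with a median of 0.34. With normexp 9 were higher, and without compost rat 1 there were 6 higher and the median was -0.08.

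All 3 inhibitor genes on the array were kept, and their rats lay close together inside each group. Timp1, an inhibitor of many metalloproteinases, stood at 2.48 and 2.35 in compost rats and at 1.55 and 1.71 in control rats. Both compost rats were higher than both control rats, by 1.72-fold on average. The difference was 0.79 ± 0.19 (standard error), with a limma unadjusted p of 0.00967 and an adjusted p of 1.00. It was 0.78 with normexp and 0.70 to 0.87 with 1 rat left out, while normexp brought the difference of Mmp12 to 0.39 and that of Adamts5 to 0.24.

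Timp2 stood at 5.19 and 4.96 in compost rats and at 4.76 and 4.90 in control rats, a difference of 0.25 ± 0.19 in which the nearest rats of the groups differed by 0.07, and the groups overlapped under quantile scaling. Timp3, which binds to the matrix and also blocks Adamts enzymes, stood at -3.87 and -3.95 in compost rats and at -3.52 and -3.62 in control rats. Both compost rats were lower, with a difference of -0.33 ± 0.18 and an adjusted p of 1.00. The difference between the rats of a group did not exceed 0.23 in any Timp gene.

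Of the Adamts and Adamtsl genes, 14 of 20 were kept. Adamts5, which cuts the cartilage proteoglycan aggrecan and related proteoglycans, stood at -4.46 and -4.28 in compost rats and at -5.51 and -5.53 in control rats. The gap of 1.05 between the nearest rats was the only one of at least 1 log2 unit among the matrix genes. Its difference was 1.15 ± 0.18 (standard error), a 2.22-fold higher signal, with a limma unadjusted p of 0.00189 and an adjusted p of 0.867. The signal was weak: the processed intensities were 44.9 and 37.4 in compost rats and 16.9 and 16.4 in control rats, and 1 of the 2 control arrays was well above background. With normexp the difference was 0.24, with the groups still apart.

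Adamts15 stood at -4.65 and -4.39 in compost rats and at -4.06 and -4.26 in control rats, lower in both compost rats by -0.36 ± 0.20, and the groups overlapped with normexp. Adamts14, which trims the ends of procollagens, stood at -4.94 and -6.72 in compost rats and at -5.37 and -6.01 in control rats, where 1 array of each group was well above background, so that the size of the gap inside the compost pair rests on a dim value. Adamts1, Adamts8 and Adamts9, which cut proteoglycans such as versican, were higher in compost rat 1 than in compost rat 2 by 1.54, 1.22 and 0.97. Adamts13, which cuts von Willebrand factor, differed more between the control rats, by 1.21, than between the compost rats, by 0.40.

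The Adamtsl proteins resemble Adamts enzymes but lack the protease domain. Adamtsl4 stood at -1.49 and -1.80 in compost rats and at -3.22 and -1.60 in control rats, so that its difference of 0.76 ± 0.57 was -0.05 without control rat 1. Adamtsl5 stood at -0.42 and 0.10 in compost rats and at 0.75 and -0.08 in control rats, a difference of -0.50 ± 0.36. Over the 14 genes 6 were higher and 8 lower, with a median of -0.08, and quantile scaling turned this to 8 higher and 6 lower with a median of 0.06. Without compost rat 2 there were 10 higher with a median of 0.48, and without compost rat 1 there were 3 higher with a median of -0.24. Without control rat 2 the median was -0.21.

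**Figure D3:**
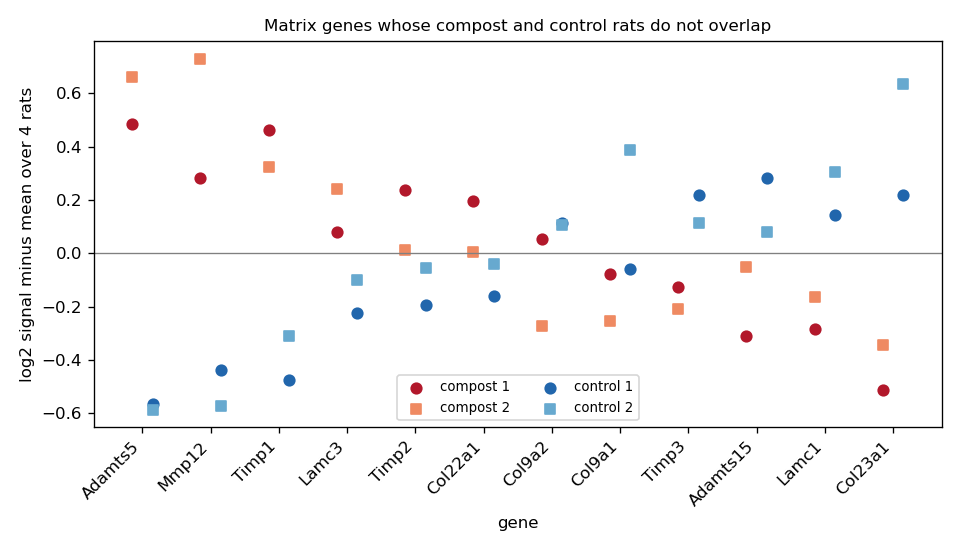
The 12 matrix genes (1 probe each) whose compost rats both lay above or both below the control rats are ordered by their difference, with the log2 signal of each rat minus the mean of the gene over 4 rats on the vertical axis. Adamts5, Mmp12 and Timp1 at the left have the widest gaps in favour of compost, and Col23a1 at the right has the widest gap in favour of control, while the gap of Col9a1 is narrow.

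Of the lysyl oxidases, 4 of 5 genes were kept. Lox stood at -0.97 and -2.56 in compost rats and at -1.60 and -1.54 in control rats, so that the control rats lay between compost rats 1.59 apart, and its second probe gave the same order, with the compost rats 2.47 apart and 1 of them not well above background. Loxl1, which cross-links elastic fibres, stood at 0.92 and 0.20 in compost rats and at 0.37 and -0.20 in control rats, a difference of 0.47 ± 0.35. Its second probe stood at -1.17 and -1.98 in compost rats and at -2.16 and -2.57 in control rats, a difference of 0.79 ± 0.34 in which the groups did not overlap. Loxl2 was higher in rat 1 than in rat 2 in both groups, by 0.72 and 0.81, and Loxl3 had a difference between the groups of 0.01 ± 0.23. The second Loxl3 probe gave 0.55 ± 0.39, with compost rat 1 above compost rat 2 where the brighter probe had the reverse order. The median over the 4 genes was 0.11, and -0.12 without control rat 2.

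Where genes had several kept probes, the direction of the difference between the groups was shared by all probes in 13 of 16 genes and split in 3, Mmp2 and Lamc1 among them. Compost rat 1 lay above compost rat 2 on all probes of 9 of the 16 genes, below it on all probes of Lamb3 alone, and the probes were mixed for 6. The third Lama5 probe and the second Lamc1 probe had the compost rats above the control rats where the brighter probes of these genes did not, and the dimmest Lamb3 probe had them below.

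The 23 genes not kept were well above background on at most 1 array. They were Adamts4, Adamts12, Adamts16, Adamts17, Adamts20, Adamtsl1, Loxl4, Mmp1a, Mmp1b, Mmp3, Mmp8, Mmp17, Mmp19, Mmp20, Mmp21, Mmp27, Col2a1, Col8a2, Col10a1, Col11a1, Col14a1, Col17a1 and Lama1. Adamts12, Mmp3, Mmp19, Col10a1, Col11a1 and Lama1 reached 1 array and the others none.

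Genes that work with the matrix genes were read from lists written for this purpose. None of their genes passed the adjusted threshold in either direction. Of the 17 genes kept for collagen processing, 13 were higher and 4 lower in compost rats, with a median of 0.17, and compost rat 1 was above compost rat 2 in 15. Serpinh1, the collagen chaperone, stood at 3.01 and 1.85 in compost rats and at 2.10 and 1.53 in control rats, much like Col1a1. Pcolce, an enhancer of procollagen trimming, had a difference of 0.59 ± 0.34, and P4ha2, a prolyl hydroxylase, one of 0.37 ± 0.20.

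Of the 31 other matrix glycoproteins and proteoglycans, all 31 were higher in compost rat 1 than in compost rat 2, by a median of 0.99, and 27 had their highest value there. Against control, 25 were higher and 6 lower, with a median of 0.16. Vcan, the proteoglycan versican that Adamts5 and related enzymes cut, stood at -2.85 and -3.83 in compost rats and at -4.18 and -4.09 in control rats, a difference of 0.80 ± 0.37. Thbs2, a matricellular protein, had a difference of 0.46 ± 0.28, and Agrn, a basement membrane proteoglycan, one of -0.34 ± 0.19.

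The cell-surface receptors of the matrix did not lean the same way: 10 of 19 were higher and 9 lower, with a median of 0.04, and compost rat 1 was above compost rat 2 in 10. Bcam, a laminin receptor, Itgb6 and Itga11, both integrin subunits, had differences of 0.38 ± 0.24, 0.40 ± 0.29 and 0.50 ± 0.36. In the list of TGF-beta signalling and matrix-inducing factors 11 of 19 were higher and 8 lower, with a median of 0.07. Tgfb1, 1 of its ligand genes, stood at -2.82 and -3.40 in compost rats and at -3.45 and -4.32 in control rats. Its difference was 0.77 ± 0.38, while Pdgfa and Ccn2 of the same list had differences of -0.33 ± 0.20 and -0.38 ± 0.25. Among the plasminogen system and other protease regulators 10 of 19 were higher and 9 lower, with a median of 0.03, and Plat, the tissue plasminogen activator, had a difference of 1.04 ± 0.57.

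Markers of the cell types in the wall also differed between the rats. With each gene set to its mean, the median of 12 fibroblast markers was 0.33 and -0.15 in compost rats 1 and 2, against 0.16 and -0.35 in control rats 1 and 2. That of 11 endothelial markers was 0.48 and -0.36 in compost rats, against 0.14 and -0.26 in control rats. That of 13 macrophage markers was 0.71 and -0.23 in compost rats, against -0.17 and -0.35 in control rats. Like the matrix genes, these 3 lists had their highest value in compost rat 1. The fibroblast markers differed as much between the control rats, with a median of rat 1 minus rat 2 of 0.54, as between the compost rats, with 0.53. For the 67 matrix genes the medians were 0.21 in the control pair and 0.72 in the compost pair. For the 13 other collagens among them they were 0.39 and 0.33. Of the 11 endothelial markers, 1 was well above background on no control array, so it was kept through the compost rats alone.

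The summed signal of the fibroblast markers, as log2, was 4.63 and 4.20 in compost rats, against 4.52 and 4.01 in control rats, and Cd34 and Pi16 were well above background on no array. The sum of the endothelial markers was 4.34 and 3.80 in compost rats, against 4.44 and 3.47 in control rats. The sum of the macrophage markers was 8.50 and 8.01 in compost rats, against 8.12 and 8.49 in control rats. In the fibroblast and endothelial sums rat 1 exceeded rat 2 in each group, and the groups overlapped in all 3. A sum follows its brightest genes: a single gene made most of the endothelial sum, and another most of the macrophage sum. The gene that made most of the macrophage sum was among the 2 of its list that were lower in compost rats. The macrophage list had 11 of 13 genes higher in compost rats, with a median of 0.53, and Fcgr3a, an antibody receptor, had a difference of 1.90 ± 0.59 and an adjusted p of 1.00.

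The 10 smooth muscle markers had medians of 0.27 and -0.21 in compost rats, against -0.26 and 0.13 in control rats, and their summed signal was 8.09 and 8.09 in compost rats, against 7.82 and 8.05 in control rats. The 11 epithelial markers ran the opposite way in the compost pair, at -0.18 and 0.12, against 0.02 and 0.01 in control rats, and their sum was 10.8 and 11.2 in compost rats, with both control rats between these. The 6 markers kept of pancreas and mesenteric fat, tissues next to the gut, had medians of 0.66 and -0.12 in compost rats, against 0.04 and -0.46 in control rats, highest in compost rat 1 like the matrix genes. Of these 6 genes, 3 were higher and 3 lower in compost rats. Prss1, a trypsinogen, and Adipoq, the fat hormone adiponectin, had both compost rats above both control rats. Their differences were 2.08 ± 0.59 and 1.25 ± 0.54, with adjusted p of 1.00 from limma. Cela2a and Cela1 went the other way, with each control rat higher than each compost rat. Their differences were -0.47 ± 0.24 and -0.16 ± 0.19, and Cela2a was well above background on 0 compost arrays. The list had a sum of 3.13 and 3.08 in compost rats, against 3.11 and 3.04 in control rats, and Cpa1, Pnlip, Plin1 and Lep were well above background on no array. Most of this sum came from a single gene.

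B cell markers ordered the compost rats in another way. Of the 7 kept, Cr2 and Ms4a1 were well above background on no control array, so they were kept through the compost rats alone. The other 5 had both compost rats above both control rats, as 12.7% of all genes had, and were highest in compost rat 2. With Cr2 and Ms4a1 included, the list had medians of 0.14 and 1.31 in compost rats, against -0.61 and -0.85 in control rats, and a summed signal of -0.26 and 1.40 in compost rats, against -1.18 and -1.07 in control rats. Their order in the compost pair was the reverse of that of most collagens. It was shared by Mmp12 and Adamts5, and also by other matrix genes such as Lamb3, Mmp13 and Col4a4. Over all genes it was the more common order, since compost rat 1 was above compost rat 2 in 43.3% of them. The part of these cell types in the values of the matrix genes was not tested. In these bulk samples fewer cells of a type and less RNA per cell cannot be told apart.

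**Figure D4:**
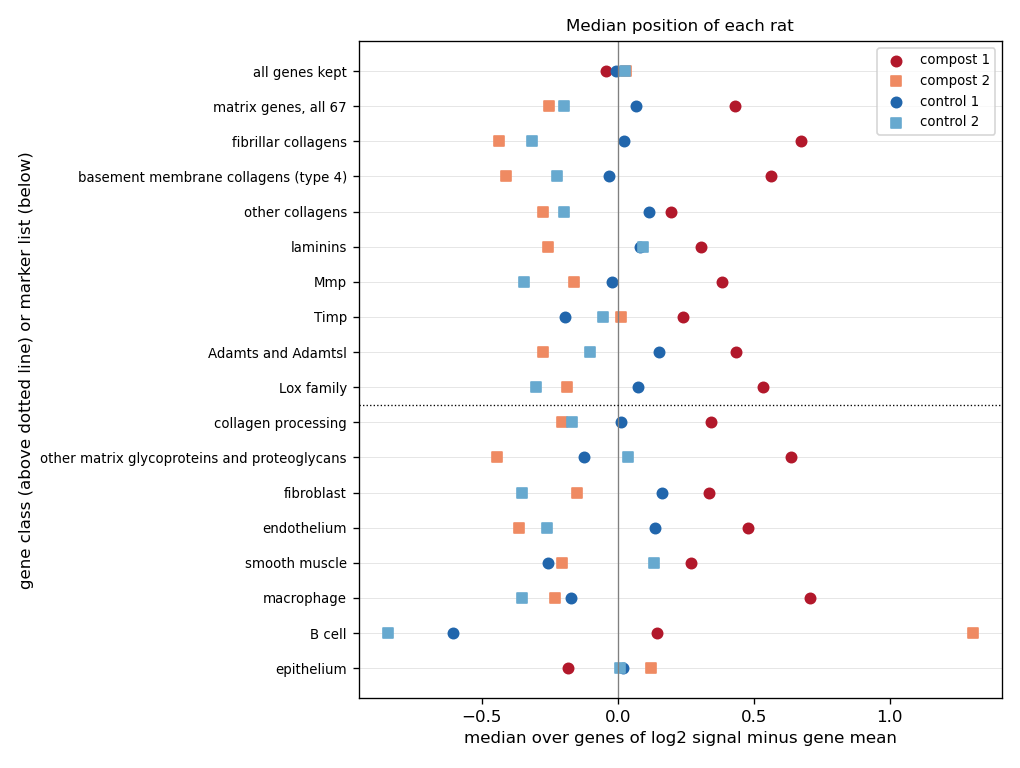
The horizontal axis gives the median, over the genes of a class or list, of the log2 signal of a rat minus the mean of the gene over the 4 rats, with 1 row a class (above the dotted line) or list (below it) and 1 symbol a rat. Compost 1 lies furthest right in each matrix class, at 0.43 over the 67 genes, and all 4 rats lie between -0.04 and 0.03 over all genes kept.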

How the data were processed

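Total RNA of 4 rat small intestines (2 compost, 2 control, grouped by the sample titles) was measured on 1 array each. The deposited scanner files held spot intensity values processed by Agilent Feature Extraction 9.1.3.1, which detrended and background-subtracted them, per the file headers and the submitters' processing notes, on a linear scale with no scaling between arrays. The same deposited files held the raw mean intensity, the local background intensity and flags, as 0 or 1, for spots that were outliers, saturated or well above background. The authors' deposited table of values gave the processed intensity again, to 3 significant digits (largest difference under 0.5%), with column medians of 102 and 73.9 for the compost arrays and 80.2 and 79.4 for the control arrays.

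Each array had 45018 spots, of which 1639 controls were left out. Outlier spots were dropped, which removed 31 probes. Log2 processed intensities were averaged per probe and scaled by the 75th percentile of the array. Probes well above background on 2 or more of 4 arrays were fitted with limma 3.58.1 in R 4.3.3 (lmFit and eBayes, two-sided tests). P-values were adjusted by Benjamini-Hochberg over 28415 probes, with a threshold of 0.05. The fit was tested on simulated data. Of several kept probes of a gene, that with the highest mean stood for it. In each class the genes named were up to 3 without overlap between the groups, that with the highest mean and that with the largest difference inside a group, with further members added as examples, and from each other list up to 3 genes with the smallest p. The members, lists and tests were chosen with earlier results of these data known. Alternatives were normexp background correction (offset 50), quantile or median scaling, no filter or a stricter one, the value table, each rat left out, a replicate block and a variance trend. The values of 1 laminin gene and 1 marker gene are not reported here, though they enter the counts. Names outside the matrix families were updated through a RefSeq table of GRCr8. The deviations of same-numbered rats correlated at r = -0.04 across all 28415 probes and at 0.21 across the 87 member probes. The labels do not say that the numbers pair rats, and they were not taken to.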

Additional observations from a re-analysis of the deposited data

How the results depend on the processing

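No adjusted call was made for a matrix gene under any alternative run. Over all probes the count of calls was 0 with each scaling, each filter, the value table, the variance trend and the replicate block (lowest adjusted p 0.230), 1 with normexp (adjusted p 0.0377), and 0 to 2 with 1 rat left out, the 2 being without control replicate 2. The replicate block is given as an alternative alone, since the labels do not say whether the numbers pair the rats. With no filter on dim probes more probes were counted, and 14 of 121 member probes (11.6%, against 11.4% of all probes) had both compost rats above the control rats. In that setting 11 (9.09%, against 13.8% of all probes) had both below. With 1 rat left out the counts were 17 to 58 above and 12 to 39 below, since 3 arrays separate more readily than 4. The lowest count above, 17 (19.5%), came without control rat 2, against 28.7% of all probes, and without compost rat 1, against 36.4%. The lowest count below, 12 (13.8%, against 29.1% of all probes), came without control rat 1. The highest count above, 58 (66.7%, against 33.3% of all probes), was without compost rat 2, and the highest below, 39 (44.8%, against 34.4%), without compost rat 1. The median difference of the member genes ran from -0.23 without compost rat 1 to 0.45 without compost rat 2, and was 0.02 with normexp, 0.15 with quantile scaling, 0.12 with median scaling and 0.15 with the mean of all kept probes of a gene. Over the member probes the median size of the difference between the compost rats stayed above that between the control rats under each scaling, filter and background correction, with normexp at 0.44 against 0.19 and otherwise at 0.72 to 0.77 against 0.28 to 0.33. Over all genes kept it was likewise larger in the compost pair, at 0.31 against 0.19, and with normexp at 0.26 against 0.13. Of the 12 genes without overlap between the groups, 8 kept that with normexp, 10 with quantile scaling and 11 with median scaling. The number of arrays limits the precision, and signals near background depend on how the background was subtracted.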

Other observations

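Some probes carry an older name or none on the array and belong to these families by the current RefSeq name, so that the naming rule did not take them. There were 9 such probes, of which 7 were kept. Col6a4, a further type VI collagen chain, stood at 0.62 and -0.41 in compost rats and at 0.27 and -0.61 in control rats, a difference of 0.28 ± 0.48 (standard error). The brighter of the 2 Lama4 probes, for a laminin chain of vessels, stood at -0.87 and -1.56 in compost rats and at -1.15 and -1.49 in control rats, a difference of 0.10 ± 0.31. Adamts2, which trims procollagens, stood at -2.31 and -3.06 in compost rats and at -2.73 and -2.74 in control rats, a difference of 0.05 ± 0.30. In these 3 genes compost rat 1 was the highest rat. Col20a1 and the 2 Adamtsl2 probes had differences of -0.37, -0.20 and -0.01, and the groups overlapped on all 7 probes.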
